A study of Rattus norvegicus with 6 samples.

Results

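RNA of 4 of 6 fibrillar and 3 of 4 type VI collagen genes tested was more abundant in the kidneys of Dahl S rats than in those of Lewis rats, all fed a high-salt diet. That of the remaining type VI gene tested, Col6a6, was less abundant. The 4 genes tested of type IV collagen, the collagen of basement membranes, differed little between the strains. Collagen genes were taken as those whose probe sets carry a single gene symbol that starts with Col and a digit. They number 41 genes, measured by 58 of the 31099 probe sets on the array. They were sorted by type number into fibrillar collagens (types 1, 2, 3, 5 and 11, with 9 genes), type 4 of basement membranes (5 genes), type 6 (5 genes), collagens that attach to fibril surfaces, known as FACIT (9 genes), and all others (13 genes).

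The study compared the kidney transcriptomes of male rats of the Dahl salt-sensitive strain, written Dahl(S) in the labels and Dahl S here, with those of the Lewis strain. From 5 weeks of age all 6 rats ate food holding 8% NaCl, and they did so for 8 weeks. Each strain gave 3 rats, and each rat's kidney RNA was hybridized to an array of its own. No rat on another diet was analysed here, so the strains' inherited makeup and their reaction to the salt diet cannot be told apart. The values are whole-kidney levels, in which more cells of a type and more RNA per cell cannot be told apart either.

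The values given below are log2(signal + 16) after quantile normalization, which brings all arrays to the same distribution, and a difference of 1 on this scale is a doubling for bright genes. Differences understate the change of dim genes. The array's 2% trimmed mean of deposited signal ran from 118 on Lewis array 1, the dimmest, to 249 on Dahl S array 2. Computed over the probe sets tested, correlations of arrays of the same strain were 0.980 or above and those of arrays of different strains 0.970 or below. Of 11 kidney epithelial genes listed to check the tissue, 10 were on the array and all 10 were bright enough to be tested. Of these 0 were higher, 9 did not pass and 1 was lower, the water channel gene Aqp1 (-0.17), a call lost when Lewis array 2 or Dahl S array 2 or 3 was left out (adjusted p = 0.0591, 0.141 and 0.142); another Aqp1 probe set gave -0.32 (adjusted p = 0.00167). The proximal tubule phosphate transporter gene Slc34a1 gave -0.06 with its brightest probe set (adjusted p = 0.527) but -0.62 with another (adjusted p = 0.0022), and was called lower when probe sets were averaged (-0.34, adjusted p = 0.00243). Over all genes tested 9.04% were called higher and 7.62% lower, and 1 lower of these 10 is near the latter share. Adjusted p-values are from limma, with a threshold of 0.05 over all 15797 probe sets tested, and n = 3 arrays per strain throughout.

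Collagens are built from 3 chains wound into a triple helix. Fibrillar collagens assemble outside the cell into the rope-like fibrils of interstitial matrix and scar, FACIT collagens coat those fibrils, and type VI collagen forms beaded filaments around cells. Type IV collagen forms the sheet-like network under epithelia and around capillaries, including the glomerular filter. In the kidney, interstitial fibroblasts and pericytes are known as main sources of fibrillar collagen, and epithelial and endothelial cells as sources of type IV collagen.

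Of the 41 collagen genes, 20 had a probe set bright enough to be tested, that is, above the overall median on 3 or more arrays. Among these 20, 11 were higher in Dahl S, 1 was lower and 8 did not pass. Over all 9540 genes tested, 9.04% were called higher and 7.62% lower. The median difference of the collagen genes was 0.46, against 0.00 over all genes. Every Dahl S array lay above every Lewis array in 12 of the 20, where 18.4% of all genes did so, and below in 1 of the 20, where 16.7% did. By probe set, 16 of 28 were higher and 1 was lower, against 8.50% and 7.75% of all probe sets tested. Of these 28 probe sets 25 exceeded the median on all 6 arrays, and 0 passed the filter on the arrays of 1 strain alone. The calls of 7 genes, Col1a2, Col3a1, Col5a2, Col6a1, Col6a3, Col12a1 and Col15a1, were made in the main setting and in each of 15 alternatives, which left out each array in turn or changed the normalization, pseudocount, filter, model or choice of probe set.

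**Figure D1:**
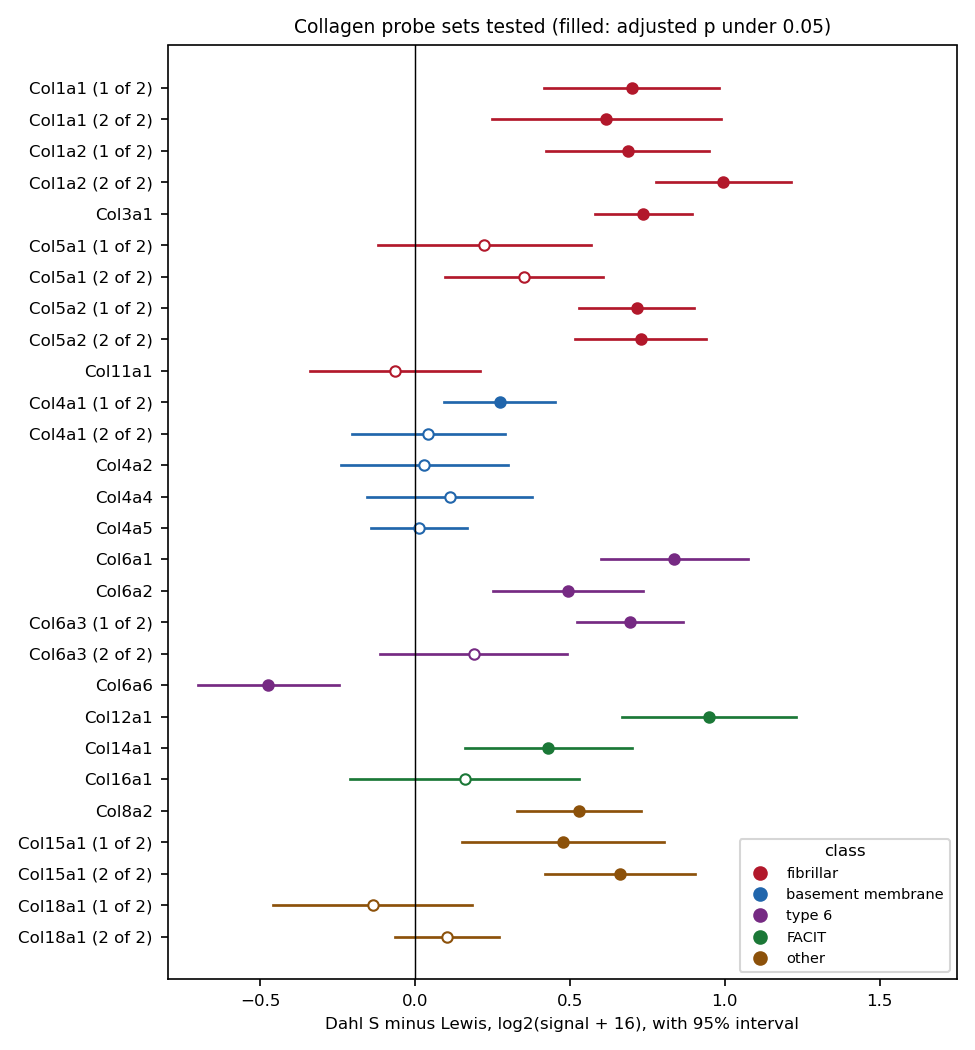
Difference between Dahl S and Lewis for each of the 28 collagen probe sets tested, on the log2(signal + 16) scale, with limma's 95% interval as a line and 3 arrays per strain. Filled points passed the threshold: 16 lie to the right of 0 and 1, Col6a6, to the left, while the type 4 probe sets lie between 0.01 and 0.27.

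Among fibrillar collagens, 4 of 6 genes tested were higher in Dahl S, 0 were lower and 2 did not pass, with a median difference of 0.65. The 4 were the genes of both chains of type I collagen, the main fibril collagen, of type III, its partner in distensible tissue, and of the alpha 2 chain of type V, which helps to start fibrils. Col3a1 read 10.22, 10.03 and 10.03 on the arrays of Lewis rats 1, 2 and 3 (the order used throughout), against 10.83, 10.83 and 10.84 for the Dahl S rats. The Dahl S values were nearly equal, and the ranges lay well apart. The difference was 0.74 (SE 0.07, 1.67-fold, adjusted p = 2.48e-05). Col5a2, which lies next to Col3a1 on chromosome 9 with 0 protein-coding genes between them, read 8.18, 8.32 and 8.35 in Lewis and between 8.98 and 9.02 in Dahl S. It was 1.64-fold higher (0.71, SE 0.09, adjusted p = 0.000115), and its other probe set gave 0.73 (SE 0.10, adjusted p = 0.000276), so both probe sets placed all Dahl S arrays above all Lewis arrays.

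Col1a2, the alpha 2 chain of type I collagen, read 9.26, 8.69 and 8.88 in Lewis and 9.66, 9.59 and 9.64 in Dahl S. The difference was 0.69 (SE 0.12, 1.61-fold, adjusted p = 0.00211). Its other probe set read 8.48, 8.38 and 8.37 against 9.61, 9.28 and 9.32, a larger difference of 0.99 (SE 0.10, 1.99-fold, adjusted p = 3.12e-05). Neither probe set had overlapping ranges, and in both the Lewis array with the highest value was array 1. Its promoter is shown because this gene had the largest difference among fibrillar probe sets. The stretch is from RefSeq, build GRCr8, chr4:33518307-33518416 on the plus strand, bases -250 to -141 from the gene's start, and capitals mark motif matches.
Col1a2 promoter: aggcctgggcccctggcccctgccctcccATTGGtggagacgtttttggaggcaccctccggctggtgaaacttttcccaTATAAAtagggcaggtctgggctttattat
The first capitals, from base -221, are the letters of a CCAAT box read on the minus strand. The second, from base -170, are those of a TATA box, both counted from the annotated start. The letters searched were CCAAT, those of the GC box, which are GGGCGG, and those of the TATA box, which are TATAAA, on both strands of the 250 bases before the start, with overlapping matches allowed. They occurred in 34.3%, 32.4% and 13.1% of 27457 RefSeq promoters, and in 9, 18 and 4 of the 32 collagen genes with an entry. A match is a description of the letters and not a binding site.

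Col1a1, the alpha 1 chain of type I collagen, was the only called fibrillar gene with overlapping ranges. Its brighter probe set read 9.64, 8.99 and 8.79 in Lewis and 9.63, 9.90 and 9.73 in Dahl S, and Lewis array 1 reached the lowest Dahl S value. The difference was 0.62 (SE 0.17, adjusted p = 0.0273). The call was lost without Lewis array 2 (0.54, adjusted p = 0.108) or Lewis array 3 (0.44, adjusted p = 0.0847). It was also lost when Dahl S array 1 (0.68, adjusted p = 0.0517), 2 (0.54, adjusted p = 0.109) or 3 (0.63, adjusted p = 0.0678) was left out. Without Lewis array 1 the difference was 0.87. The other Col1a1 probe set was steadier, with 7.87, 7.40 and 7.39 against 8.29, 8.31 and 8.16 and ranges apart. It differed by 0.70 (SE 0.13, 1.62-fold, adjusted p = 0.00298), a call made in all 14 alternatives that apply to a single probe set.

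The alpha 1 chain of type V, Col5a1, read 6.99, 7.08 and 7.32 in Lewis and 7.58, 7.43 and 7.43 in Dahl S. The ranges did not overlap, but the difference of 0.35 missed the threshold (SE 0.12, adjusted p = 0.0621). It passed when Lewis array 3 was left out (0.45, adjusted p = 0.0238) and when arrays were scaled to a common median instead (0.42, adjusted p = 0.0401). Its second probe set gave 0.22 (adjusted p = 0.379). Col11a1, a chain of the cartilage collagen type XI, gave -0.07 (95% interval -0.34 to 0.21, adjusted p = 0.773) with overlapping ranges. Col2a1, the main cartilage collagen, Col5a3 and Col11a2 were too dim to be tested.

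**Figure D2:**
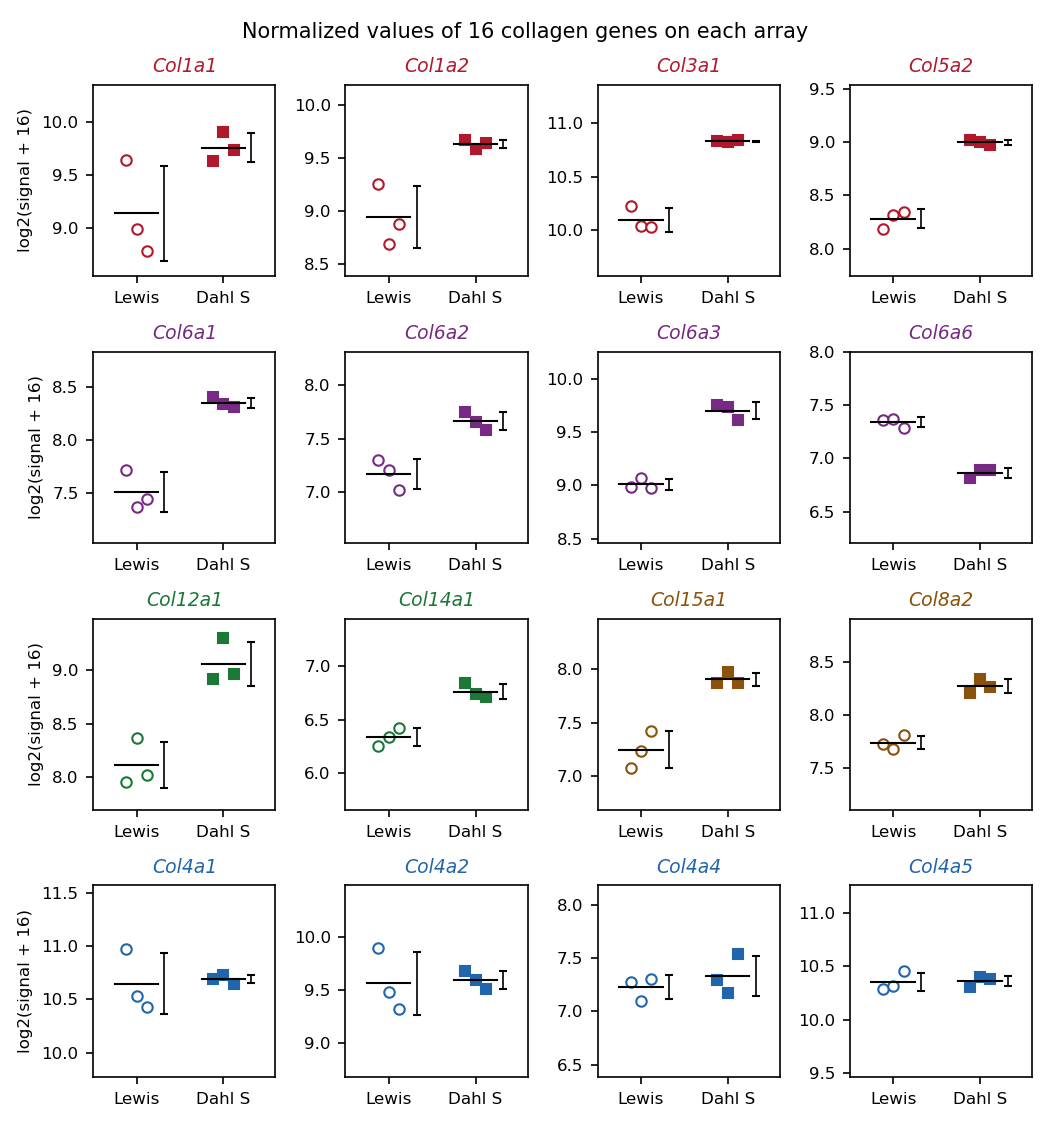
Normalized value, log2(signal + 16), of 16 collagen genes on each of the 3 Lewis arrays (circles) and 3 Dahl S arrays (squares), with the mean as a line and 1 SD beside it. The top 3 rows show genes that passed the threshold, with Col6a6 lower in Dahl S and the rest higher, and the bottom row shows the 4 type 4 genes, whose strain ranges overlap; each axis covers its own gene.

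Type 4 collagen genes did not pass by gene: of 4 tested, 0 were higher and 0 lower, and the median difference was 0.04. Col4a1 and Col4a2 encode the pair of chains found in most basement membranes. They lie next to each other on chromosome 16, run in opposite directions, and share 76 bases of the windows before their starts, which are shown for that reason. The shared stretch is from RefSeq, build GRCr8, chr16:84885521-84885596, printed on the plus strand, along Col4a1, and the capitals mark a GC box read on the minus strand.
Col4a1 and Col4a2 shared stretch: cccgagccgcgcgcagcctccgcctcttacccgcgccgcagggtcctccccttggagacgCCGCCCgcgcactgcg
Col4a2 read 9.89, 9.49 and 9.32 in Lewis and 9.68, 9.59 and 9.51 in Dahl S, with Lewis arrays on both sides of the Dahl S range. The difference was 0.03 (95% interval -0.24 to 0.30, adjusted p = 0.905).

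Col4a1 was read by a pair of probe sets that disagreed. The brighter read 10.98, 10.54 and 10.43 in Lewis and 10.70, 10.73 and 10.65 in Dahl S, with Lewis array 1 the highest and the other Lewis arrays the lowest. It differed by 0.04 (95% interval -0.21 to 0.29, adjusted p = 0.846), and by 0.21 without Lewis array 1 (adjusted p = 0.0409), where it passed. The other read 10.34, 10.15 and 10.04 against 10.45, 10.50 and 10.40, with ranges apart. In Dahl S it was higher by 1.21-fold (0.27, SE 0.08, adjusted p = 0.0407), a call kept in 5 of 14 alternatives. That call was lost without Lewis array 2 (0.26, adjusted p = 0.0998) or 3 (0.20, adjusted p = 0.104), and likewise when Dahl S array 1 (0.27, adjusted p = 0.12), 2 (0.25, adjusted p = 0.148) or 3 (0.30, adjusted p = 0.0935) was left out.

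Of the chains that are joined in the glomerular filter, those of Col4a4 and Col4a5 differed little as well. Their partner Col4a3 had no probe set among the collagen genes as taken here and was not measured. Col4a4 read 7.27, 7.10 and 7.31 in Lewis and 7.29, 7.17 and 7.54 in Dahl S (difference 0.11, 95% interval -0.16 to 0.38, adjusted p = 0.589). Col4a5, whose human gene is mutated in X-linked Alport syndrome, read 10.29, 10.31 and 10.46 against 10.31, 10.40 and 10.38 (0.01, 95% interval -0.14 to 0.17, adjusted p = 0.938). In both genes the strain ranges overlapped. The upper ends of the 4 intervals ran from 0.17 to 0.38, which a p above the threshold does not turn into equality. Col4a6 was too dim to be tested.

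Type 6 collagen gave calls in both directions: of 4 genes tested, 3 were higher and 1 was lower in Dahl S. Col6a1, Col6a2 and Col6a3 encode the chains of the usual type VI filament. Col6a1 read 7.72, 7.37 and 7.45 in Lewis and 8.40, 8.34 and 8.31 in Dahl S, with ranges apart, and was 1.79-fold higher (0.84, SE 0.11, adjusted p = 0.000217). Col6a2, its neighbour on chromosome 20 with 0 protein-coding genes between, read 7.29, 7.20 and 7.01 against 7.75, 7.66 and 7.58. The ranges did not overlap, and the difference was 0.49 (SE 0.11, 1.41-fold, adjusted p = 0.00949). With Dahl S array 1 left out, Col6a2 missed the threshold (0.45, adjusted p = 0.0557). Its other probe set, too dim to be tested, pointed the other way, with 5.65, 5.60 and 5.41 in Lewis and 5.37, 5.44 and 4.43 in Dahl S. Without the filter limma gave it -0.47 (adjusted p = 0.371).

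Col6a3 read 8.99, 9.07 and 8.97 in Lewis and 9.76, 9.74 and 9.61 in Dahl S, so that the strains were farther apart than the arrays within either. It was 1.62-fold higher (0.69, SE 0.08, adjusted p = 8.1e-05). A dimmer Col6a3 probe set gave 0.19 (95% interval -0.11 to 0.49, adjusted p = 0.396), so the size of its difference depended on the probe set.

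Col6a6, one of the chains that can stand in for the alpha 3 chain of type VI, went the other way. It read 7.36, 7.37 and 7.29 in Lewis and 6.81, 6.89 and 6.89 in Dahl S. All Dahl S arrays were below all Lewis arrays, with a 1.39-fold lower value (-0.47, SE 0.10, adjusted p = 0.00868). In the deposited values without normalization, where the median gene was 0.41 higher in Dahl S, it differed by -0.07 (adjusted p = 0.846), which is -0.49 relative to that median. Its neighbour on chromosome 8, Col6a5, was too dim to be tested, with 5.68, 5.46 and 5.51 in Lewis and 5.85, 5.77 and 5.82 in Dahl S. The 250 bases before the starts of Col6a3 and Col6a6 are shown because these chains moved in opposite directions. They are from RefSeq, build GRCr8, chr9:98886959-98887208 and chr8:115352162-115352411, both on the minus strand, and capitals mark a motif match.
Col6a3 promoter: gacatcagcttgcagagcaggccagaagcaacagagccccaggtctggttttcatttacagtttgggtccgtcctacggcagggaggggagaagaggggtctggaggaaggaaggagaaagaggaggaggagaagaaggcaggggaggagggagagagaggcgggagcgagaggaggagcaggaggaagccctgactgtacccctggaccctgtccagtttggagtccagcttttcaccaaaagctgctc
Col6a6 promoter: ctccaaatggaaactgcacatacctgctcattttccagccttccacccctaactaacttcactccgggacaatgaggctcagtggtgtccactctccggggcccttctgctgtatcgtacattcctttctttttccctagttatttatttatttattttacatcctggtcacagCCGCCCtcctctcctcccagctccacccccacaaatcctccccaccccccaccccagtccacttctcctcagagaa
The Col6a3 window held none of the 3 motifs. The Col6a6 window held a GC box on the minus strand, a motif present in 32.4% of all promoters.

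Among the fibril-coating FACIT collagens, 2 of 3 genes tested were higher and 1 did not pass. Col12a1, which binds the surface of type I fibrils, had the largest difference when each gene was read by its brightest probe set. It read 7.96, 8.36 and 8.02 in Lewis and 8.91, 9.30 and 8.97 in Dahl S, with array 2 the highest in each strain and no overlap. The gene was 1.93-fold higher (0.95, SE 0.13, adjusted p = 0.000313). Of its other probe sets, both too dim to be tested, 1 read 5.19, 5.56 and 5.00 against 5.83, 5.96 and 5.87, again with ranges apart, and the other 4.15, 5.19 and 4.34 against 4.45, 4.33 and 4.41. Col14a1, another fibril-associated collagen, read 6.25, 6.34 and 6.42 in Lewis and 6.84, 6.74 and 6.71 in Dahl S. Its ranges lay apart (0.43, SE 0.12, adjusted p = 0.0333), but the gene was dim and its call was lost without any 1 of Lewis arrays 1 (0.39, adjusted p = 0.0595) and 2 (0.43, adjusted p = 0.0705) and Dahl S arrays 1 (0.39, adjusted p = 0.138), 2 (0.44, adjusted p = 0.0904) and 3 (0.46, adjusted p = 0.0932). Col16a1 varied more within Dahl S, with 6.83, 7.64 and 7.17, than in Lewis, with 7.06, 7.06 and 7.04, and did not pass (0.16, adjusted p = 0.574).

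The remaining class holds collagens of several kinds, and 2 of its 3 genes tested were higher. Col15a1 and Col18a1 are multiplexins, which sit at basement membranes and carry sugar chains; the tail of type XVIII is the source of endostatin. Col15a1 read 7.08, 7.24 and 7.43 in Lewis and 7.87, 7.98 and 7.88 in Dahl S, with ranges apart and a 1.58-fold difference (0.66, SE 0.11, adjusted p = 0.00158). A second Col15a1 probe set gave 0.48 (SE 0.15, adjusted p = 0.0481), a call kept in 4 of 13 alternatives. Among those in which it was lost were the ones without Lewis array 1 (0.48, adjusted p = 0.064) or 3 (0.38, adjusted p = 0.111) and those that left out Dahl S array 1 (0.56, adjusted p = 0.0637), 2 (0.45, adjusted p = 0.152) or 3 (0.42, adjusted p = 0.19). Its related gene Col18a1 read 9.13, 9.18 and 9.21 against 9.23, 9.33 and 9.27. These ranges did not touch, yet the difference was only 0.10 (95% interval -0.06 to 0.27, adjusted p = 0.402), and a second probe set gave -0.14 (adjusted p = 0.577).

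The promoter of Col15a1 is shown beside these values because its call was made in every setting while that of Col18a1 was made in none. It is from RefSeq, build GRCr8, chr5:66297296-66297545 on the plus strand.
Col15a1 promoter: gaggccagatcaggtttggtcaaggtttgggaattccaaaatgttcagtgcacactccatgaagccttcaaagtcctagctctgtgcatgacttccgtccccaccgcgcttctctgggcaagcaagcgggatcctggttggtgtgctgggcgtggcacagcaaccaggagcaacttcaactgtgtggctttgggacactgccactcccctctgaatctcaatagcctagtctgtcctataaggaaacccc
It held none of the 3 motifs. Col8a2, a chain of the short-chain collagen VIII known from vessel walls and the cornea, read 7.73, 7.68 and 7.81 in Lewis and 8.21, 8.34 and 8.26 in Dahl S. All Dahl S arrays were higher, by 0.53 on average (SE 0.09, 1.44-fold, adjusted p = 0.00198).

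The other 21 genes were below the filter with every probe set, and with further probe sets of tested genes they gave 30 probe sets with strain means between 4.09 and 6.30. Without the filter 0 of these 30 were called by limma. The nearest to the threshold were Col10a1 (-0.65, adjusted p = 0.0851), a collagen of growth cartilage that read 5.46, 5.68 and 5.72 in Lewis and 4.98, 5.24 and 4.68 in Dahl S, and the dim Col12a1 probe set (0.63, adjusted p = 0.0851). Those below the filter include the cartilage collagens Col2a1, Col9a1, Col9a2, Col9a3 and Col11a2, the anchoring fibril collagen Col7a1, and the membrane-spanning Col13a1, Col17a1, Col23a1 and Col25a1. For such genes a difference was not measurable at this signal, and its absence was not shown.

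Averaged over a class on each array and set relative to the Lewis mean, the fibrillar genes tested read 0.15, -0.08 and -0.06 in Lewis and 0.52, 0.50 and 0.49 in Dahl S. Type 4 read 0.16, -0.09 and -0.07 in Lewis and 0.05, 0.03 and 0.07 in Dahl S. Lewis array 1 was thus high in both classes. Type 6 read 0.08, -0.01 and -0.08 against 0.42, 0.40 and 0.34, with Col6a6 included. Within each array, the fibrillar mean minus the type 4 mean was -0.01, 0.01 and 0.01 in Lewis and 0.48, 0.48 and 0.42 in Dahl S. Taken this way, the Lewis arrays were nearly equal and the strains lay 0.46 apart, with an SD of 0.01 in Lewis and 0.03 in Dahl S. The same difference for type 6 was -0.08, 0.08 and -0.01 against 0.38, 0.37 and 0.27, which is 0.34 between strains. These class means describe the genes tested and carry no test.

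**Figure D3:**
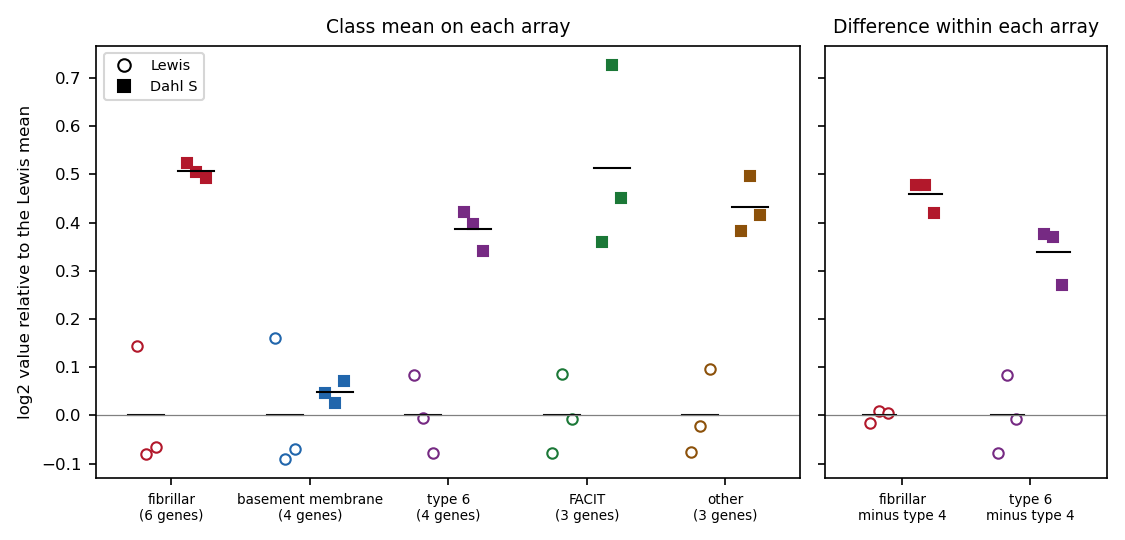
Left, mean of each collagen class on each array relative to the Lewis mean, on the log2 scale, with Lewis arrays as circles, Dahl S arrays as squares and strain means as lines. Right, fibrillar and type 6 means minus the type 4 mean within each array, where Lewis lies between -0.08 and 0.08 and Dahl S between 0.27 and 0.48.

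Genes that make, cut and bind collagen were read from lists of their own. Over all 9540 genes tested 9.04% were called higher and 7.62% lower, the shares to set beside each list's counts. A single call among 16 or 19 genes is near those shares. Of 19 collagen biosynthesis genes tested, 4 were higher in Dahl S, 1 was lower and 14 did not pass, with a median of 0.16. P3h3, of the prolyl 3-hydroxylase family, read 6.14, 5.76 and 5.48 in Lewis and 6.95, 6.84 and 6.93 in Dahl S. It passed the filter (6.28) on its Dahl S arrays alone and so had to differ. Without it 3 of 18 genes of the list were higher and 1 was lower. Loxl1, a lysyl oxidase that cross-links matrix fibres, differed by 0.88 (SE 0.13, adjusted p = 0.000703). Plod2, which hydroxylates the lysines used in fibrillar cross-links, was higher by 0.43 (SE 0.08, adjusted p = 0.00397). Serpinh1, the collagen chaperone HSP47, was higher by 0.52 (SE 0.11, adjusted p = 0.00555). Plod3, whose product also adds sugars to collagen, was lower (-0.34, SE 0.09, adjusted p = 0.0292), a call lost when Lewis array 2 (-0.28, adjusted p = 0.0995) or Dahl S array 2 (-0.30, adjusted p = 0.119) or 3 (-0.31, adjusted p = 0.133) was left out. Without normalization, where the median gene was 0.41 higher in Dahl S, Plod3 differed by 0.10 (adjusted p = 0.808). Relative to that median this is -0.31.

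Of 11 genes of collagen breakdown and uptake tested, 3 were higher, 0 lower and 8 did not pass. Timp1, an inhibitor of the metalloproteinases that cut collagen, differed by 1.42 (SE 0.10, adjusted p = 1.57e-06). Mmp14, a membrane-bound metalloproteinase that cuts fibrillar collagen, was higher by 0.61 (SE 0.09, adjusted p = 0.00062). The lysosomal protease gene Ctsl was higher by 0.27 (SE 0.05, adjusted p = 0.00141), though by 0.12 when arrays were scaled to a common median (adjusted p = 0.412), and another probe set gave 0.68 (adjusted p = 0.000153). Timp3, a matrix-bound inhibitor of the same family as Timp1, missed the threshold with its brightest probe set (-0.36, adjusted p = 0.053). Of its other probe sets 2 were lower (-0.46, adjusted p = 0.00691, and -0.34, adjusted p = 0.0123) and 1 gave -0.00 (adjusted p = 0.994). As a gene Timp3 was called lower when Lewis array 1 (-0.19, adjusted p = 0.0426), 2 (-0.45, adjusted p = 0.0441) or 3 (-0.45, adjusted p = 0.0306) was left out, and under scaling to a common median, the replicate block and averaged probe sets. Of 5 collagen receptor genes tested, 2 were higher and 3 did not pass: Itga1, the alpha 1 integrin chain (0.68, SE 0.10, adjusted p = 0.000439), and its partner Itgb1 (0.41, SE 0.08, adjusted p = 0.00367; adjusted p = 0.057 with scaling to a common median). These are the chains of an integrin that binds both type I and type IV collagen.

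Of 16 non-collagen partners of type IV in the basement membrane, 4 were higher, 1 was lower and 11 did not pass, with a median of 0.06. The linker nidogen, Nid1, was higher by 0.76 (SE 0.11, adjusted p = 0.000377), but another bright probe set gave 0.05 (adjusted p = 0.775). Higher too were the laminin chains Lama4 and Lamb1 by 0.71 (SE 0.13, adjusted p = 0.00319) and 0.36 (SE 0.07, adjusted p = 0.00527). Pxdn, which forms the cross-links between type IV molecules, was higher by 0.50 (SE 0.13, adjusted p = 0.0192), and by 0.93 in another probe set (adjusted p = 8.05e-05). The first of these Pxdn calls was lost when Dahl S array 1 (0.53, adjusted p = 0.0514), 2 (0.51, adjusted p = 0.0558) or 3 (0.45, adjusted p = 0.0875) was left out. Sparc, a collagen-binding matrix protein, was lower in its brightest probe set (-0.68, SE 0.10, adjusted p = 0.000652) but not in another, which gave 0.09 (adjusted p = 0.475), so its direction is uncertain.

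**Figure D4:**
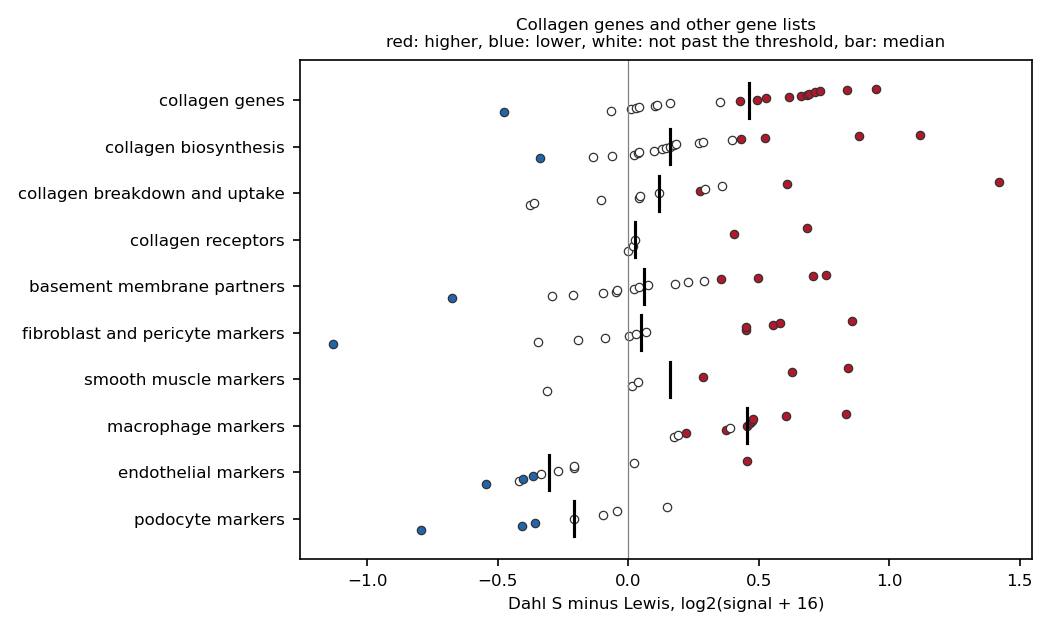
Difference between Dahl S and Lewis, log2(signal + 16), for each gene tested among the collagens and 9 other lists, with the list median as a bar. Collagen and macrophage genes each have a median of 0.46, fibroblast and pericyte genes one of 0.05. Without normalization, where the median gene was 0.41 higher in Dahl S, Plod3, Emcn, Pecam1, Ptpro and Wt1 lie slightly above 0 but below that median.

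Markers of cells that can make or accompany collagen were read beside these values, and their part in the collagen differences was not tested. The shares over all genes tested were 9.04% higher and 7.62% lower, and a single call among 10 or 12 marker genes is near them. Of 12 fibroblast and pericyte genes tested, 5 were higher, 1 was lower and 6 did not pass, and the list mean ran from -0.02 to 0.02 in Lewis and from 0.04 to 0.15 in Dahl S. The fibril-binding proteoglycan gene Dcn was higher by 0.86 (SE 0.06, adjusted p = 1.72e-06), Pdgfra, a receptor of interstitial fibroblasts, by 0.45 (adjusted p = 0.00112), and the pericyte receptor gene Pdgfrb differed by 0.00 (adjusted p = 0.99). The single lower gene, Cspg4, a pericyte marker, passed the filter on the Lewis arrays alone (6.79, 6.55 and 6.60 in Lewis, 5.63, 5.12 and 5.80 in Dahl S), and Lum, one of the higher, on the Dahl S arrays alone. Without these 2 genes 4 of 10 were higher and 0 lower. The list mean given above includes both, with differences of -1.13 for Cspg4 and 0.58 for Lum, and so was lowered by Cspg4. Among those that did not pass, Dpt gave -0.19 with its brightest probe set (adjusted p = 0.0839). Its other probe set was lower (-0.41, adjusted p = 0.0115), as was the gene when probe sets were averaged (-0.30, adjusted p = 0.0185). Thy1 gave -0.35 (adjusted p = 0.0803). In the values without normalization 2 genes of this list, Dcn and Lum, were called higher and 0 lower. Lum is the gene that the main filter let in on Dahl S arrays alone. Cspg4 was not tested in that setting, so the 0 lower there is not a lost call. Of 6 smooth muscle genes 3 were higher, with a list mean of -0.15 to 0.18 in Lewis and 0.21 to 0.27 in Dahl S. Acta2, the smooth muscle actin that also marks myofibroblasts, differed by 0.01 (adjusted p = 0.957). Only 1 of the 3 passed without Dahl S array 1.

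Macrophage genes had 8 of 11 higher and 3 not past the threshold, with a list mean of -0.07 to 0.08 in Lewis and 0.39 to 0.46 in Dahl S. Of them 4 passed without Dahl S array 1, 5 without array 2 and 5 without array 3, and 2 passed without normalization. Of 10 endothelial genes 1 was higher, 3 were lower and 6 did not pass, with a list mean of -0.07 to 0.04 in Lewis and -0.26 to -0.19 in Dahl S. Of 7 podocyte genes 3 were lower and 4 did not pass, with -0.04 to 0.05 in Lewis and -0.27 to -0.23 in Dahl S. Both endothelial cells and podocytes make type IV collagen, and after normalization their lists lay lower on every Dahl S array while the type 4 mean overlapped between strains. These counts were unsteady: the endothelial list had 6 lower without Lewis array 3, its higher gene was lost without any 1 array but Lewis array 2, and the podocyte list had 1 lower without Lewis array 2 or Dahl S array 2. Without normalization 0 genes of either list were called. Of 10 cartilage and bone markers 6 were on the array, and 1 was bright enough to be tested, Matn1 (0.35, adjusted p = 0.079). Acan, Comp, Bglap, Ibsp and Cnmd were below the filter.

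**Figure D5:**
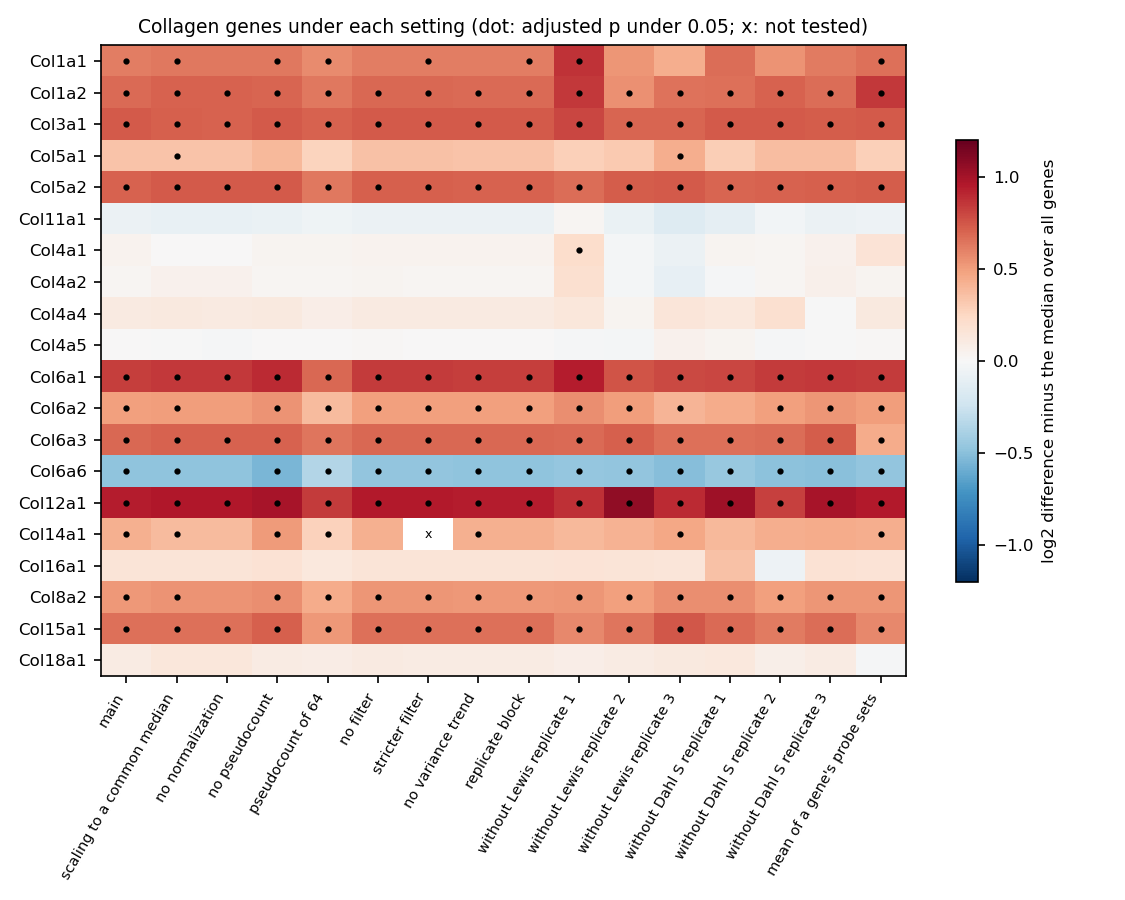
Difference of each of the 20 collagen genes tested, minus the median over all genes, in the main setting and each of 15 alternatives, as colour on a log2 scale, with a dot where limma's adjusted p was under 0.05 and a cross where the gene was not tested. Col1a2, Col3a1, Col5a2, Col6a1, Col6a3, Col12a1 and Col15a1 carry a dot in every column, and Col4a1 has its only dot without Lewis array 1.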

How the data were processed

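Whole-kidney RNA of 3 Lewis and 3 Dahl S rats, extracted with TRIzol and labelled with biotin, was measured on 1 array per rat. The deposited table holds 1 linear signal intensity per probe set and array, which the authors computed with GeneChip Operating Software version 1.4, per the labels. How the arrays were scaled, and which probes were detected, is not stated in the labels or the table. Groups and replicate numbers are those of the sample titles.

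The intensities were not at a common level, although the design had assumed that they were, so log2(intensity + 16) was quantile-normalized after 57 control probe sets were left out. The pseudocount is the rounded lower quartile of all values. A probe set was tested where it lay above the median of all values (6.28 on the log2 scale) on at least 3 of 6 arrays. The test was two-sided, from limma 3.58.1 under R 4.3.3 (a linear fit with lmFit, moderated by eBayes along a variance trend), and p-values were adjusted by the Benjamini-Hochberg method over 15797 probe sets. Of a gene's probe sets, the one brightest on average across the 6 arrays represented it. Gene symbols came from the platform annotation, updated through gene identifiers to RefSeq GRCr8: 20764 of 21268 annotated probe sets matched, and 20826 carried 1 symbol, 436 several and 9780 none. The RefSeq gene table also gave neighbours, and RefSeq promoter sequences were found for 32 of 41 collagen genes.

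The collagen genes, their classes and the other lists were chosen with earlier results of these data known. All collagen genes tested were named. From each other list up to 4 genes in each direction with the smallest adjusted p could be named. Genes beyond that (Acta2, Pdgfrb, Matn1, Timp3, Slc34a1, Lum, Dpt, Thy1 and the markers below the filter) were named after their values were seen, as were the printed promoters chosen. With 3 arrays against 3 an exact permutation test, two-sided, has 0.1 as its smallest p, and none was used. The number of arrays limits the precision. The fit was tested on simulated data before use. Same-numbered rats did not deviate together (correlations of their deviations from the strain means -0.05, -0.10 and 0.11), so the numbers were not treated as pairs. Alternatives were scaling to a common median, no normalization, no pseudocount and one of 64, no filter and a stricter one, no variance trend, the replicate number as a block, averaging a gene's probe sets, and leaving out each array with the normalization kept.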

Additional observations from a re-analysis of the deposited data

How the results depend on the processing

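What could be seen was limited by 3 arrays per strain, by a normalization that hides a shift shared by most genes, and by 30 collagen probe sets too dim to be tested. Over the 15 alternatives, the values of single collagen genes kept their side of the threshold 276 times, lost a call 20 times, gained one 3 times and turned a called direction 0 times. The largest effect was that of leaving out the normalization, where the median tested probe set was 0.41 higher in Dahl S and 93.4% of all calls were higher, against 52.3% in the main setting and 65.0% with scaling to a common median. There 7 collagen genes (10 probe sets) were called higher in place of 11 (16), and 0 (0 probe sets) lower in place of 1. The classes then gave 1 FACIT and 1 other gene higher. Of the fibrillar genes Col1a1 was lost there (adjusted p = 0.0503), and of the type 6 genes Col6a2 (adjusted p = 0.0514). Of the lists, biosynthesis gave 2 higher and 0 lower, basement membrane partners 2 higher and 0 lower, breakdown 1 higher and receptors 1 higher. The 2 of biosynthesis were Loxl1 and P3h3, and P3h3 had passed the main filter on its Dahl S arrays alone. Without normalization the genes called lower in the main setting that lay above 0 were Aqp1 (0.067), Emcn (0.045), Pecam1 (0.022), Plod3 (0.10), Ptpro (0.021) and Wt1 (0.057), none past the threshold; there each value includes the shift of 0.41.

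The fibrillar gene Col1a1 also lost its call without the filter (adjusted p = 0.0948) and without the variance trend (adjusted p = 0.0676), and kept it in 7 of 15 alternatives. FACIT genes called higher numbered 1 without the filter, with the stricter filter and with the replicate number as a block. Biosynthesis genes called lower numbered 0 without the filter and with scaling to a common median, where 1 receptor gene was higher. Genes of breakdown called lower numbered 1 with scaling to a common median, with the block and with averaged probe sets. With the replicate block, 10 collagen genes were called higher and 1 lower. Col14a1 was lost (adjusted p = 0.0579), as was the second probe set of Col15a1 (adjusted p = 0.058). Whether rats of the same number share anything is not stated in the labels. With single arrays left out, 8 to 11 collagen genes and 11 to 15 probe sets were called higher. By class the ranges were 1 to 2 for FACIT and 0 to 1 for type 4, the 1 being Col4a1 without Lewis array 1. Among fibrillar genes, Col1a1 was lost without Lewis array 2 or 3 or any 1 Dahl S array. Col5a1 was gained without Lewis array 3. Among type 6 genes, Col6a2 was lost without Dahl S array 1. The ranges of the lists were 4 to 7 higher and 0 to 1 lower for biosynthesis, 0 to 1 lower for breakdown and 1 to 2 lower for basement membrane partners. The higher counts of biosynthesis include P3h3. All calls, 1343 higher and 1224 lower, came to 802 and 774 without Dahl S array 1, 837 and 805 without array 2, and 763 and 725 without array 3.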
